A study of Mus musculus with 8 samples.

Results

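The genes described here are 10 immediate early genes and close relatives of macrophages: Egr1, Egr2, Nr4a1, Ier2, Ier3, Ier5, Myc, Srf, Btg1 and Btg2. Every spot that the array annotation assigns to one of these gene names was taken, which gave 16 probes, and all 10 genes were on the arrays. After the filter for probes above background, 9 of the 10 were among the 14805 genes tested. Egr1 was the exception: its single probe was not well above background in either channel on any of the 8 arrays, so no ratio is given for it.

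RAW 264.7 cells, a macrophage-like mouse line of BALB/c background, were given 1 of 2 probiotic bacteria, which are called L. acidophilus (Lactobacillus acidophilus, strain MTCC-10307) and B. clausii (Bacillus clausii, strain MTCC-8326) from here on. The multiplicity of infection was 100, and RNA was taken at 1, 2, 4 and 6 h. Each of the 8 arrays compared treated RNA (Cy5) with RNA of untreated cells of the same time (Cy3), so every group has a time-matched control of the same line. Each RNA was an equal pool from 3 cultures, and each bacterium and time has 1 array. The values are therefore log2 ratios of treated to untreated pools, with no spread between cultures. The line is a transformed one, and the cells had no antibiotic in their medium.

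Immediate early genes are transcribed within minutes of a stimulus from factors that the cell already holds, and most of their RNAs are short-lived. A classic route runs from ERK kinases to serum response factor (Srf) and its ternary complex partners at CArG boxes, and other routes run through CREB and NF-kB. Some of the products are transcription factors (Egr1, Egr2, Nr4a1, Myc), some are small regulators of signalling and survival (Ier2, Ier3, Ier5), and Btg1 and Btg2 restrain proliferation and recruit the CCR4-NOT deadenylase that shortens mRNA tails. In macrophages many of them respond to microbial products sensed by Toll-like receptors.

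Promoter sequences were searched for the binding motifs of these routes. RefSeq windows (GRCm38.p6) were at hand for 7 of the 10 genes (Egr2, Nr4a1, Ier3, Ier5, Srf, Btg1 and Btg2), and Egr2 had 5 entries. In the 250 bases before each start, 6 motifs were searched on both strands: the CArG box, the cAMP response element TGACGTCA, the TGACG core of that element (found in every full element as well), the EGR site GCGGGGGCG, the NF-kB site, and the TATA box TATAAA. The CArG box was searched as CC, then 6 letters A or T, then GG. The NF-kB site was searched as GGG, A or G, any base, A or T, C or T, C or T, then CC. The windows of Srf, Egr2, Nr4a1, Ier3 and Btg1 are shown because they stand for the groups described below, with all matches in capitals:
Srf: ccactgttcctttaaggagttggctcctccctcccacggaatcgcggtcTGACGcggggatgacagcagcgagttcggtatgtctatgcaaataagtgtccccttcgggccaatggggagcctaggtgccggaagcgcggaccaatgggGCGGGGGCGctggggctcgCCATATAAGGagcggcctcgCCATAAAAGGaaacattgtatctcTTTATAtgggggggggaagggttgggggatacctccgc
Egr2: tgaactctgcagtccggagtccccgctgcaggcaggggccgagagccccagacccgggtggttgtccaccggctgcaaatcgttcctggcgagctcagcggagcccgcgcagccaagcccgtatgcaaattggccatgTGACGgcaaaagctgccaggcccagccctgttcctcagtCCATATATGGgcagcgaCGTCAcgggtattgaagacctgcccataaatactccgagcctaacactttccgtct
Nr4a1: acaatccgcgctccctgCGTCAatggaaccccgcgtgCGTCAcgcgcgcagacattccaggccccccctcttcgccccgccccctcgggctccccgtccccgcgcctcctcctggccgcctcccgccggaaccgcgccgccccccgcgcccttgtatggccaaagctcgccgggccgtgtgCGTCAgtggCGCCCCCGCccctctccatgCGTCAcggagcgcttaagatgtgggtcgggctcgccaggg
Ier3: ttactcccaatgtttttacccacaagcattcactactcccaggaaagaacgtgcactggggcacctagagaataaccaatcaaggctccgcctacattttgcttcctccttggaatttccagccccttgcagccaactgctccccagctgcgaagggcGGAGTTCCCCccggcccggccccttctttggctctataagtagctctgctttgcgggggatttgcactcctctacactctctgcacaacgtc
Btg1: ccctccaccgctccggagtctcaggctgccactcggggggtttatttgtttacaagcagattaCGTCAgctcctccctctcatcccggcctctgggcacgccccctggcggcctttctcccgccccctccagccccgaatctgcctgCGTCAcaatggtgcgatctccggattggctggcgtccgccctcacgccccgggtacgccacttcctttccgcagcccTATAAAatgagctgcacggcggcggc

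These windows lie at chr17:46556163-46556412 on the minus strand (Srf), and on the plus strand at chr10:67537620-67537869 (Egr2), chr15:101266596-101266845 (Nr4a1), chr17:35821463-35821712 (Ier3) and chr10:96616751-96617000 (Btg1). The Srf window holds 2 CArG boxes, at 82 to 73 and 62 to 53 bases before the start. The Egr2 window shown holds 1, at 73 to 64 bases. The Egr2 entries differed: that at chr10:67535249-67535498 held no match. The one at chr10:67537316-67537565 held another CArG box and no TGACG core. The remaining entries overlap the one shown and hold the same 3 matches. A CArG box was present in 1.47% of the 32851 promoter windows of the table. The EGR site (2.57% of windows) was found in the Nr4a1 and Srf windows. The NF-kB site (3.9% of windows) was found among the members in Ier3 alone, 92 to 83 bases before the start. The TGACG core (17.8% of windows) occurred 4 times in the Nr4a1 window and also in Egr2, Srf, Btg1 and Btg2, and the full element (1.55%) in Btg2. A TATA box (12.4%) was matched in Srf, on the opposite strand, and in Btg1. The Ier5 window held none of these motifs. A match describes letters and not binding, and no binding was measured here.

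Of the 41174 probes, 42.1% to 47.4% were well above background for untreated RNA and 39.6% to 51.5% for treated RNA, depending on the array, and 0 spots were saturated. The labelled cell type was checked by its markers: 10 of 12 macrophage markers gave a clear signal (well above background) from untreated RNA on all 8 arrays, against 0 of 6 fibroblast and 1 of 6 epithelial markers (Krt14). The bacteria were on separate slides, scanned and annotated separately, and each time had its own place on a slide, so slide and bacterium, and place and time, cannot be told apart. Treated RNA carried the same dye on every array, so a constant dye effect of a probe and a constant difference between treated and untreated cells cannot be told apart either. In bulk RNA, a change in every cell and a larger change in some cells give the same ratio.

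Of the 9 measured members, 6 were higher in treated than in untreated cells and 3 were lower, and the same 6 and 3 were called for both bacteria. Egr2, Nr4a1, Ier2, Ier5, Myc and Srf were the higher ones, although with B. clausii Egr2, Ier2, Ier5 and Srf changed sign and Nr4a1 and Myc lost their calls when arrays were centred on their medians, and Ier3, Btg1 and Btg2 were the lower ones under either scaling. These calls come from limma (adjusted p under 0.05, Benjamini-Hochberg over all genes tested) on the mean over the 4 times. Among all genes tested, 23.7% were called higher and 18.5% lower with L. acidophilus, against 23.1% and 21.1% with B. clausii. The median of the members was 0.20 with L. acidophilus, then 0.29 with B. clausii, against 0.02 and 0.01 for all genes. The test sets each mean against 0. Its spread is how far the difference between the bacteria changes from time to time. The mean difference between them and the scatter between times are taken out. It holds no scatter between cultures. None of the changes was large: 1 member reached a 2-fold difference on an L. acidophilus array (0.601% of all genes did) and 1 on a B. clausii array (1.32% of all genes). In both cases that member was Ier3.

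**Figure D1:**
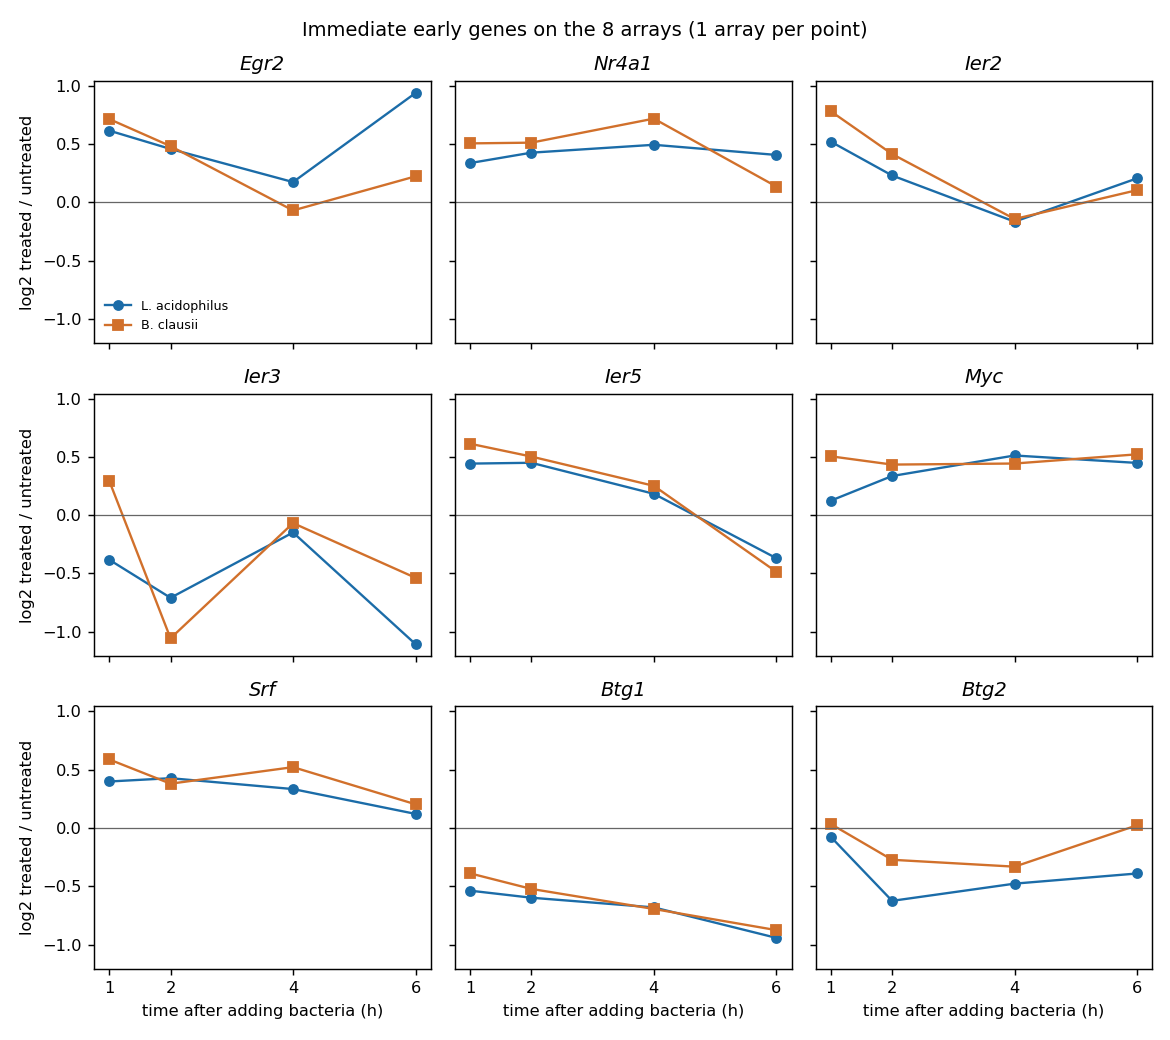
Log2 ratio of treated to untreated signal (vertical axis) against time in hours (horizontal axis) for the 9 measured members, 1 array per point, with circles for L. acidophilus and squares for B. clausii. In these loess-normalized values Nr4a1, Myc and Srf lie above 0 on all 8 arrays and Btg1 below 0 on all 8. Ier5 crosses from above to below 0 between 4 and 6 h with both bacteria.

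Egr2 is a zinc finger transcription factor (Krox20) that takes part in macrophage and lymphocyte differentiation. After loess normalization it was highest at 1 h and lowest at 4 h with B. clausii. With L. acidophilus it had a second high value at 6 h. Its log2 ratios at 1, 2, 4 and 6 h were 0.62, 0.46, 0.17 and 0.94 with L. acidophilus, then 0.72, 0.48, -0.07 and 0.22 with B. clausii. Its probe was printed 10 times on every array, which gives a technical error for each value: the SD between spots ran from 0.06 to 0.18. At 6 h the spots of the L. acidophilus array lay between 0.74 and 1.18 and those of the B. clausii array between 0.02 and 0.51, so the spots did not overlap, but each bacterium has a single pool at that time. The mean over the 4 times was 0.55 ± 0.08 (SE of the limma fit) with L. acidophilus (adjusted p = 0.00158) and 0.34 ± 0.08 with B. clausii (adjusted p = 0.0114). The call for L. acidophilus held under all 21 alternatives run. That for B. clausii was lost under 5 of them, among these when 1 B. clausii array was left out: 0.24 without 1 h (adjusted p = 0.108), 0.26 without 2 h (adjusted p = 0.107) and 0.35 without 4 h (adjusted p = 0.0591). Under median centring the B. clausii mean also changed sign (-0.10, adjusted p = 0.28). That setting gave -0.04, 0.05, -0.32 and -0.07 with B. clausii, with the highest value at 2 h, and the L. acidophilus values kept their signs.

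Nr4a1, the orphan nuclear receptor Nur77 that limits inflammatory gene expression in macrophages, was above 0 on all 8 arrays after loess normalization. It stood at 0.34, 0.43, 0.49 and 0.41 with L. acidophilus at 1, 2, 4 and 6 h, and at 0.51, 0.51, 0.72 and 0.14 with B. clausii. The highest value was thus at 4 h with both bacteria, and the lowest was the B. clausii array of 6 h. The mean was 0.42 ± 0.06 (adjusted p = 0.00113) and 0.47 ± 0.06 (adjusted p = 0.000415), or 1.33-fold and 1.38-fold. The B. clausii call was lost under median centring (0.0046, adjusted p = 0.962). That setting put the B. clausii arrays of 1 h (-0.29) and 6 h (-0.20) below 0, and the other arrays stayed above it.

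Myc, the transcription factor that drives growth and ribosome production, was also above 0 on all 8 arrays with each of its 3 probes after loess normalization. The probe used in the fit, again printed 10 times, gave 0.12, 0.34, 0.51 and 0.45 with L. acidophilus, then 0.50, 0.43, 0.44 and 0.52 with B. clausii, and its spots had SDs between 0.07 and 0.22. With L. acidophilus the 1 h value was the lowest of the 8, and the other 7 lay between 0.34 and 0.52. The mean was 0.35 ± 0.05 with L. acidophilus (adjusted p = 0.00149) and 0.48 ± 0.05 with B. clausii (adjusted p = 0.000248). Under median centring the second was not called (0.02, adjusted p = 0.816). That setting put the arrays of 1 h (-0.13 with L. acidophilus and -0.30 with B. clausii) below 0. The B. clausii array of 2 h stood at -0.01, and the other arrays stayed above 0. The other probes differed in size: the one starting at base 1899 of the transcript averaged 0.39 and 0.41 for the 2 bacteria and reached 0.80 at 6 h with B. clausii, and the one starting at base 1407 averaged 0.16 and 0.26.

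Srf, the DNA-binding factor for the CArG boxes shown above in its own promoter, was higher on all 8 arrays after loess normalization. Its ratios were 0.40, 0.43, 0.33 and 0.12 with L. acidophilus, then 0.59, 0.38, 0.52 and 0.20 with B. clausii. In these loess values 6 h was the lowest with each bacterium. The mean was 0.32 ± 0.04 (adjusted p = 0.00101) and 0.42 ± 0.04 (adjusted p = 0.000169). The first of these was not called (0.24, adjusted p = 0.0589) when outlying local backgrounds were left unrepaired. Median centring left neither mean called (0.14 with L. acidophilus, adjusted p = 0.135, and -0.04 with B. clausii, adjusted p = 0.637). It put the L. acidophilus array of 6 h at -0.04. The B. clausii arrays of 1, 2 and 6 h stood at -0.21, -0.08 and -0.13, and the other arrays stayed above 0. The lowest B. clausii value was thus at 1 h there, as it was with the processed signals (0.49).

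The IER genes did not share a pattern. Ier2, a nuclear protein of the early growth response, was raised at 1 h and fell below 0 at 4 h with both bacteria: 0.52, 0.23, -0.16 and 0.21 with L. acidophilus, then 0.78, 0.42, -0.14 and 0.11 with B. clausii. Under median centring its B. clausii values were all below 0, with -0.006 at 1 h, and the L. acidophilus values kept their signs. Its mean was 0.20 ± 0.05 (adjusted p = 0.0135) and 0.29 ± 0.05 (adjusted p = 0.00198). Leaving out the L. acidophilus array of 4 h took the first of these to 0.18 (adjusted p = 0.109), and leaving out that of 6 h to 0.13 (adjusted p = 0.0919), neither of them called. It was also not called with the processed signals (0.17, adjusted p = 0.079), nor with the unrepaired local background (0.09, adjusted p = 0.498). A second Ier2 probe was not well above background on any array and is not used.

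Ier5, a regulator of HSF1 and of the phosphatase PP2A, went from above its control to below it with both bacteria. It stood at 0.44, 0.45, 0.18 and -0.37 with L. acidophilus, then at 0.61, 0.50, 0.25 and -0.49 with B. clausii. After loess normalization, treated cells thus had more Ier5 signal than untreated cells up to 4 h and less at 6 h, in both series. Median centring put the B. clausii value of 1 h at -0.18, and the other arrays kept their signs. The channel signals differ by the loess ratios by construction, so they are no separate support. At 1 h and 6 h the treated signal was 13.77 and 13.00 (log2) on the L. acidophilus slide. On the B. clausii slide it was 13.90 and 12.98. The untreated signal moved from 13.33 to 13.37 and from 13.29 to 13.46. The mean over times, which joins values of both signs, was 0.18 ± 0.05 (adjusted p = 0.0139) and 0.22 ± 0.05 (adjusted p = 0.00444). Without the L. acidophilus array of 2 h, 4 h or 6 h the first of these was not called (0.18, 0.18 and 0.12, with adjusted p = 0.0761, 0.0774 and 0.0846).

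Ier3 (IEX-1), an NF-kB target that affects cell survival, had the widest range of ratios among the 9 members and was the IER gene that lay mostly below its control. Its ratios were -0.38, -0.71, -0.15 and -1.11 with L. acidophilus, then 0.29, -1.06, -0.07 and -0.54 with B. clausii. The bacteria had opposite signs at 1 h, which median centring removed (-0.61 with L. acidophilus and -0.47 with B. clausii). Their values were nearest to 0 at 4 h. The 2 lowest values (-1.11 and -1.06) correspond to 0.465 and 0.481 times the untreated signal. The mean was -0.59 ± 0.10 (adjusted p = 0.00287) and -0.34 ± 0.10 (adjusted p = 0.0269). Leaving out the B. clausii array of 2 h took the second to -0.14 (adjusted p = 0.267), and leaving out that of 4 h to -0.29 (adjusted p = 0.165). Without a time term in the fit the first was not called (adjusted p = 0.0643).

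The separate channels of Ier3 add a fact that the ratios hide: its signal was higher after 1 h in the untreated cells too. On the L. acidophilus slide the untreated signal was 9.07, 11.84, 12.06 and 12.15 (log2) at 1, 2, 4 and 6 h and the treated signal 8.69, 11.13, 11.92 and 11.04. The B. clausii slide gave 9.92, 11.75, 11.81 and 11.99 in untreated cells, while its treated signal began at 10.21 and reached 11.74 at 4 h and 11.45 at 6 h. From 1 h to the mean of the later times the untreated signal thus differed by 2.95 and 1.93, and the treated signal by 2.67 and 1.08. Ranked by the smaller of the untreated increases on the 2 slides, Ier3 was number 10 of the 14805 genes, while the untreated signals of the other members changed by between -0.27 and 0.10. Only 9 genes (0.0608%) increased by 2 or more in untreated cells on both slides. These channel values are descriptions of single arrays after scaling, without a test. Whether the 2 slides shared untreated pools is stated in none of the sources used here.

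**Figure D2:**
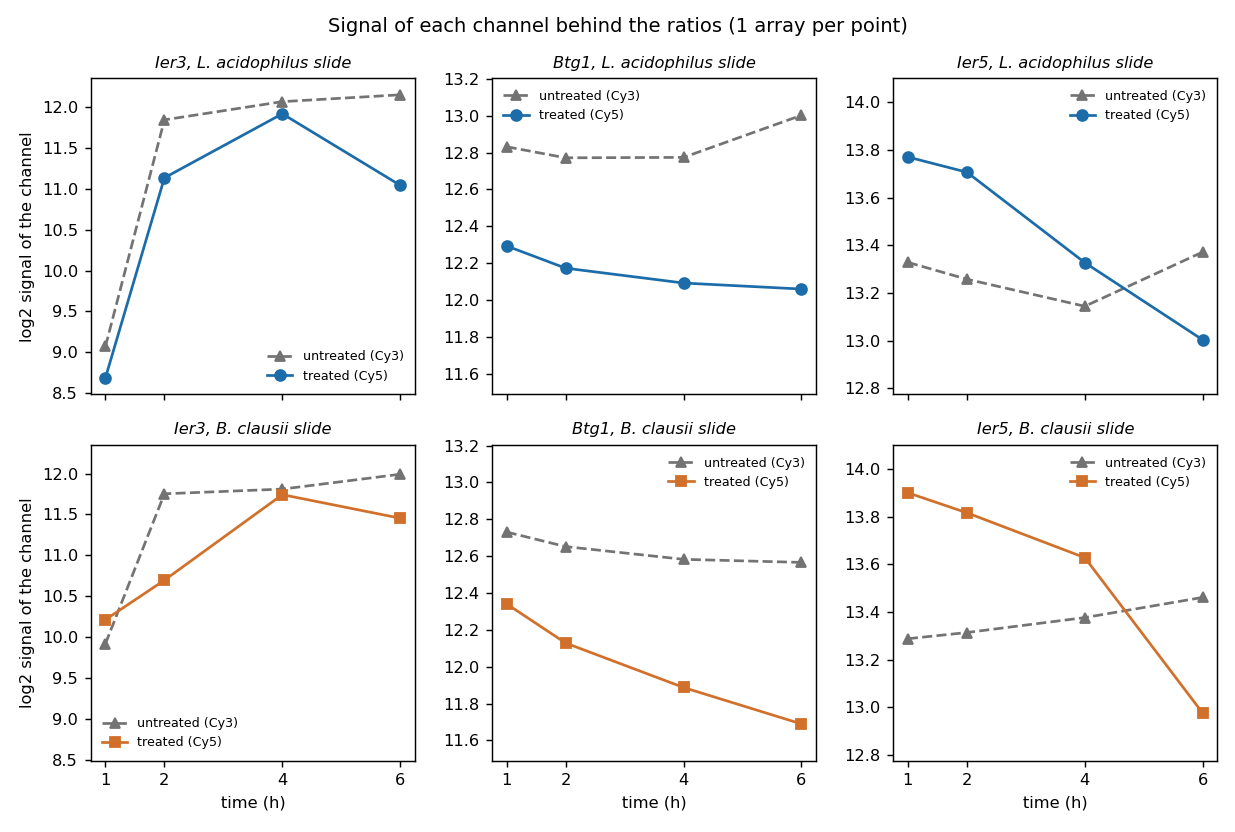
Log2 signal of the untreated (grey triangles, dashed) and treated channel (coloured, solid) against time in hours for Ier3, Btg1 and Ier5, with the L. acidophilus slide above and the B. clausii slide below, 1 array per point. Ier3 is higher after 1 h in both channels (untreated from 9.07 to 12.15 and from 9.92 to 11.99), the Btg1 channels keep apart at every time, and the Ier5 channels cross between 4 and 6 h.

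Btg1, an anti-proliferative adaptor of the deadenylase complex, was lower in treated cells on all 8 arrays. After loess normalization it was also lower at each later time with both bacteria. It stood at -0.54, -0.60, -0.68 and -0.94 with L. acidophilus, then at -0.39, -0.52, -0.70 and -0.88 with B. clausii, so that at 6 h treated cells had 0.520 and 0.545 times the untreated signal. The mean was -0.69 ± 0.04 (adjusted p = 5.05e-05) and -0.62 ± 0.04 (adjusted p = 2.15e-05), and both calls held under all 21 alternatives run, with means from -0.82 to -0.61 and from -1.06 to -0.47. Its other probe, starting at base 821 of the transcript rather than 1477, was lower on all 8 arrays as well. That probe did not go further down with time: it gave -0.65, -0.40, -0.51 and -0.57 with L. acidophilus, then -0.47, -0.27, -0.56 and -0.31 with B. clausii. Nor did the steady fall of the probe used remain under median centring. There it gave -0.77, -0.67, -0.78 and -1.06 with L. acidophilus, then -1.19, -0.95, -0.93 and -1.19 with B. clausii.

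Btg2 (TIS21), the close relative of Btg1 and a p53 target, was lower by its brightest probe, but its probes disagreed. This probe, starting at base 2371 in the untranslated 3' part, gave -0.08, -0.63, -0.48 and -0.39 with L. acidophilus, then 0.03, -0.27, -0.33 and 0.02 with B. clausii. Its mean was -0.39 ± 0.05 (adjusted p = 0.00061) and -0.14 ± 0.05 (adjusted p = 0.0477). The probe from base 284 gave 0.13, -0.13, -0.17 and 0.04 and then -0.14, 0.02, -0.12 and -0.06, and the probe from base 549 gave 0.08, 0.06, -0.32 and 0.02 and then -0.08, -0.10, -0.33 and -0.05. Averaging all 3 probes brought the L. acidophilus mean to -0.16 (adjusted p = 0.0157). The B. clausii call was lost under 13 of 21 alternatives, among them, when 1 array was left out, those without 1 h (-0.09, adjusted p = 0.274), 2 h (-0.17, adjusted p = 0.0941) and 4 h (-0.10, adjusted p = 0.296) of B. clausii and without 2 h (adjusted p = 0.0648) or 4 h (adjusted p = 0.0666) of L. acidophilus.

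The probes in the protein-coding part of Btg2 and Myc gave means nearer to 0 than the probes used for those genes, and their 60-base sequences from the array annotation are shown for that reason (from base 284 of Btg2 and base 1407 of Myc):
Btg2: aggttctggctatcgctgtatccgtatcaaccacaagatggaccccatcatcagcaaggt
Myc: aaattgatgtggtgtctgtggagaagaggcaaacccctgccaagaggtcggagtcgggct

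**Figure D3:**
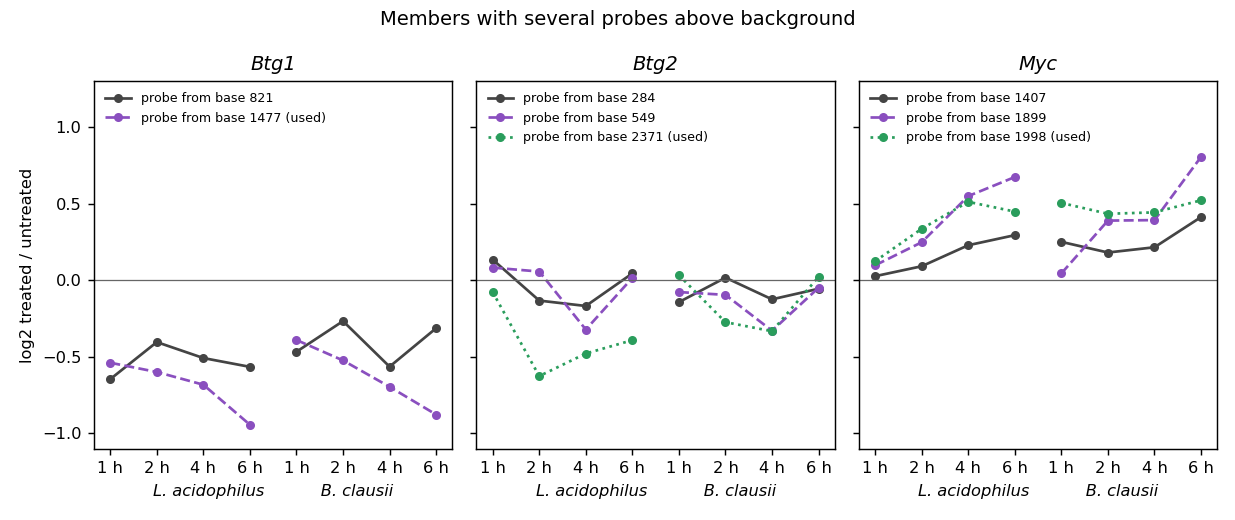
Log2 ratio (vertical axis) on the 8 arrays, ordered by bacterium and time (horizontal axis), for each probe of Btg1, Btg2 and Myc, 1 array per point, with the first transcript base of each probe in the key. In these loess-normalized values both Btg1 probes lie below 0 and all 3 Myc probes above 0 throughout. For Btg2 only the probe from base 2371 goes below -0.4.

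By the array annotation (mm9), the probes used in the fit lie at chr10:67004758-67004817 (Egr2), chr15:101105071-101105130 (Nr4a1), chr8:87185211-87185245 (Ier2), chr17:35959528-35959587 (Ier3), chr1:156944778-156944837 (Ier5), chr15:61821516-61821576 (Myc), chr17:46683788-46683795 (Srf), chr10:96081915-96081974 (Btg1) and chr1:135972094-135972153 (Btg2). The promoter windows above are in another build, so these positions are not to be set against them. For Ier2 and Srf the annotation gives a shorter stretch than for the other probes.

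The direct comparison of L. acidophilus with B. clausii called 0 of the 9 members, against 0.642% of all genes. By limma without adjustment 1 member (Btg2) and 3360 genes had p under 0.05. Btg2 was the member nearest to the threshold, with a difference of -0.26 (95% interval -0.41 to -0.10, adjusted p = 0.108). For Egr2 the difference was 0.21 (-0.06 to 0.48) and for Ier3 -0.24 (-0.58 to 0.09). The intervals for Nr4a1 (-0.24 to 0.14), Ier2 (-0.25 to 0.07), Ier5 (-0.19 to 0.10), Myc (-0.30 to 0.05), Srf (-0.25 to 0.04) and Btg1 (-0.20 to 0.06) leave room for differences of up to 0.30. Whether the bacteria differed in the change from early to late times was tested as an interaction, which called 0 of 9 members and 0% of all genes, while 175 genes and 0 members had an unadjusted p under 0.05.

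Across time, 3 members were lower at 4 and 6 h than at 1 and 2 h, where 12.4% of all genes were. Ier5 averaged 0.50 early and -0.10 late, a difference of -0.61 ± 0.06 (adjusted p = 0.00061). For Ier2 the difference was -0.49 ± 0.07 (adjusted p = 0.0024), and for Btg1 -0.29 ± 0.06 (adjusted p = 0.00826). The Btg1 call was lost under 6 of 20 alternatives: median centring (-0.09, adjusted p = 0.585), the mean over its probes (-0.16, adjusted p = 0.0682), the processed signals and the series table (-0.23, adjusted p = 0.105 for both), the unrepaired local background (-0.25, adjusted p = 0.0701) and without the B. clausii array of 4 h (-0.26, adjusted p = 0.0526). With the 6 h array of L. acidophilus left out, Egr2 was also called lower late (-0.42, adjusted p = 0.00975), against -0.25 ± 0.12 (adjusted p = 0.164) with all arrays. Myc was called higher late after median centring (0.32, adjusted p = 0.0187), against 0.13 ± 0.08 (adjusted p = 0.25) after loess.

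Ratios at 1 h were higher than at the later times for 5 members (9.73% of all genes): Ier3 by 0.56 ± 0.17 (adjusted p = 0.05, just under the threshold before rounding), Ier2 by 0.54 ± 0.08 (adjusted p = 0.00546), Ier5 by 0.44 ± 0.07 (adjusted p = 0.00679), Btg2 by 0.32 ± 0.08 (adjusted p = 0.0248) and Btg1 by 0.26 ± 0.07 (adjusted p = 0.0287). The Btg1 and Btg2 values are those of the brightest probe: averaged over probes they were 0.07 (adjusted p = 0.508) and 0.17 (adjusted p = 0.113), and the other Btg1 probe had its lowest L. acidophilus value at 1 h. This comparison rests on few arrays. Without the B. clausii array of 1 h none of the 9 members was called, with differences of 0.27 for Ier3, 0.43 for Ier2, 0.35 for Ier5, 0.42 for Btg2 and 0.20 for Btg1 and adjusted p between 0.104 and 0.536. Over all genes that setting left 40 calls in either direction, against 2937 with all arrays, so the loss was not limited to the members. The processed signals of the scanner software called 0 members and 0 genes, and after median centring the Btg1 difference was -0.05 (adjusted p = 0.818). Median centring called only Myc, which was lower at 1 h (-0.43, adjusted p = 0.00623). Of all genes 25.8% were called under that setting, 4.26% of these higher. The count of members called was 3 without the L. acidophilus array of 1 h, 2 h or 4 h or the B. clausii array of 2 h, and 2 without that of 4 h. Egr2 at 1 h was 0.30 ± 0.14 above its later mean and not called (adjusted p = 0.164), and was called when the 6 h array of L. acidophilus was left out (0.41, adjusted p = 0.0145).

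The sign of several small means changed with the way the dyes were balanced. The loess curve used here sets the typical gene of each brightness to 0. Centring each array on its median instead left the median of the tested genes at -0.08 for the L. acidophilus mean and at -0.25 for the B. clausii mean. Under that setting Btg1, Ier3 and Btg2 were lower with both bacteria, with means of -0.82, -0.74 and -0.54 for L. acidophilus, then -1.06, -0.79 and -0.48 for B. clausii. With L. acidophilus, Egr2 (0.36), Nr4a1 (0.24) and Myc (0.19) were still called higher, and Ier2, Ier5 and Srf had means of 0.01, 0.09 and 0.14 that were not called. With B. clausii, Nr4a1 (0.00) and Myc (0.02) were at 0, Egr2 (-0.10) and Srf (-0.04) turned sign without a call, and Ier2 (-0.17, adjusted p = 0.0358) and Ier5 (-0.19, adjusted p = 0.0255) were called lower. Relative to the median of all genes under the same setting, the 6 stayed above it with both bacteria: by 0.44, 0.32, 0.09, 0.17, 0.27 and 0.22 with L. acidophilus and by 0.15, 0.25, 0.08, 0.06, 0.27 and 0.20 with B. clausii (Egr2, Nr4a1, Ier2, Ier5, Myc and Srf). In all genes, higher ones made up 56.2% of the L. acidophilus calls and 52.2% of the B. clausii calls after loess. Median centring moved these shares to 22.9% and 8.85%, and the unrepaired local background to 44.8% and 38.3%. For the late against the early times the shares were 49.8% after loess and 88.4% after median centring. For 1 h against later times they were 49.1% after loess, 4.26% after median centring and 38.8% with the unrepaired local background. For the difference between the bacteria they were 69.5% and, after median centring, 98.3%.

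**Figure D4:**
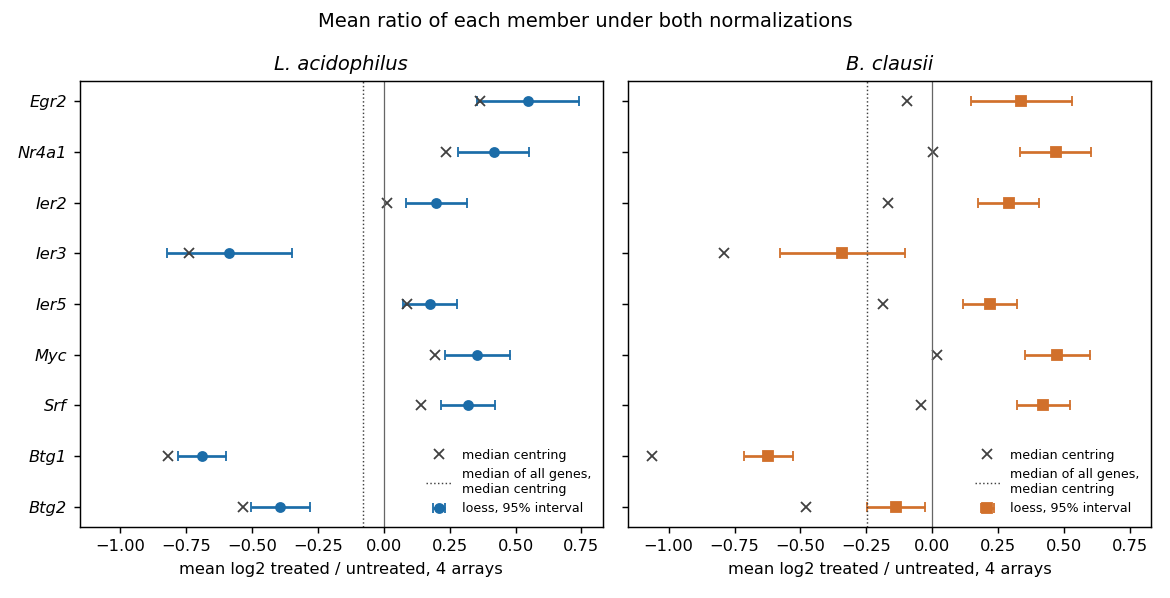
Mean log2 ratio over the 4 arrays of each bacterium (horizontal axis) for the 9 members, with filled symbols and 95% intervals for the loess values and crosses for median centring; the dotted line is the median of all genes under median centring. Btg1, Ier3 and Btg2 are left of 0 under both, and the B. clausii crosses of the other 6 lie between -0.19 and 0.02, near 0 but right of the dotted line at -0.25.

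Other immediate early genes, 44 in a list of textbook members such as the Fos, Jun, Klf and Dusp genes, were measured for 37. With L. acidophilus 15 were higher, 9 lower and 13 not called, with a median of 0.09 (all genes 23.7% higher and 18.5% lower), and with B. clausii 11 were higher and 11 lower, with a median of 0.06 (all genes 23.1% and 21.1%). Bhlhe40, a basic helix-loop-helix repressor, was the highest with both bacteria (0.82 ± 0.07 and 0.77 ± 0.07, adjusted p = 0.000118 and 6.39e-05), followed by Tnfaip3, the NF-kB inhibitor A20 (0.40 ± 0.04 and 0.49 ± 0.04). Among the lower genes were Klf4 (-0.33 ± 0.06 and -0.74 ± 0.06), Ptgs2, which encodes cyclooxygenase 2 (-0.32 ± 0.05 and -0.54 ± 0.05), and Arc (-0.72 ± 0.05 with L. acidophilus). Median centring gave 6 higher and 13 lower with L. acidophilus, then 3 and 22 with B. clausii. It called 39.4% and 64.2% of all genes, and higher ones made up 22.9% and 8.85% of those calls. The unrepaired local background gave 4 and 6, and 5 and 7, where 15.4% and 23.9% of all genes were called.

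The same 37 genes were compared across time. Late against early, 17 of the 37 were lower and 6 higher, with a median of -0.17 against 0.00 for all genes. Of all 14805 genes 12.4% were called lower, and 1812 were called higher. After median centring 9 of the 37 were lower and 7 higher, where 22.2% of all genes were called, 88.4% of these higher. Trib1 (-1.19 ± 0.09), Maff (-1.11 ± 0.06) and Klf2 (-1.04 ± 0.18) had the largest decreases, and each kept its direction under all 12 alternatives run on it. Trib1 stood at 1.05 and 1.24 at 1 h and at -0.62 and -0.61 at 4 h. Ier2 likewise was above 0 at 1 h and below it at 4 h after loess. Fos ran the other way: -0.46, -0.67, 0.27 and 0.21 with L. acidophilus, then -0.46, -0.59, 0.14 and 0.31 with B. clausii, a late minus early difference of 0.78 ± 0.06 (adjusted p = 0.000283). Ratios at 1 h were above the later ones for 15 of the 37 genes and below them for 2 (Fos and Gadd45b), where 9.73% of all genes were above, and after median centring for 5 and 5. The processed signals called 0 in either direction.

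The partners and targets of the members had calls in both directions, to be read against the shares of all genes: 23.7% higher and 18.5% lower with L. acidophilus, 23.1% and 21.1% with B. clausii. Median centring called 39.4% of all genes with L. acidophilus and 64.2% with B. clausii. Higher ones made up 22.9% and 8.85% of those calls, so most calls were lower in all genes too. The median centring counts of the lists, here and below, are to be read against that. Of 23 measured genes for Srf cofactors and the ERK pathway, 3 were higher and 6 lower with L. acidophilus, then 2 and 8 with B. clausii, with medians of -0.07 and -0.04; the adaptor Grb2 was lower with both (-0.35 ± 0.04 and -0.44 ± 0.04). Median centring gave 1 and 13, and 0 and 22. Of 16 cytoskeletal Srf targets, 3 were higher and 3 lower with L. acidophilus, then 9 and 5 with B. clausii (medians 0.01 and 0.14). Among these Actg1 (0.44 ± 0.05 with B. clausii) and Zyx, which encodes the focal adhesion protein zyxin (-0.41 ± 0.05 and -0.32 ± 0.05), lay at the ends. The B. clausii counts turn around under median centring, to 1 higher and 9 lower.

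Among 11 measured cofactors and targets of EGR and NR4A factors, 4 were higher and 2 lower with L. acidophilus (all genes 23.7% and 18.5%). With B. clausii 5 were higher and 2 lower (all genes 23.1% and 21.1%), and the medians were 0.01 and 0.03. Plau, the urokinase gene, had the largest mean (0.84 ± 0.06 and 1.09 ± 0.06, adjusted p = 6.22e-05 and 1.35e-05) and was called under all 13 alternatives run on it. The nuclear receptor partner Rxra was lower (-0.44 ± 0.05 and -0.24 ± 0.05). Under median centring the list turned to 2 higher and 5 lower with L. acidophilus, then 1 and 7 with B. clausii.

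For Myc, 9 network partners and 20 targets were measured. Max, the partner that Myc needs to bind DNA, was lower with both bacteria (-0.47 ± 0.09 and -0.85 ± 0.09, adjusted p = 0.00422 and 0.000182), as was the antagonist Mxd4 (-0.30 ± 0.05 and -0.21 ± 0.05, though its L. acidophilus mean changed sign when its probes were averaged); with L. acidophilus 0 partners were higher, and with B. clausii 1 was (Mlxip, 0.15 ± 0.05), which changed sign under median centring (-0.25). That setting gave 0 higher and 4 lower with L. acidophilus, against 0 and 8 with B. clausii. Of the targets, 5 were higher and 9 lower with L. acidophilus (all genes 23.7% and 18.5%), with a median of -0.09. With B. clausii 4 were higher and 6 lower (all genes 23.1% and 21.1%), with a median of -0.02. The 3 highest were Nop56 at 0.63 ± 0.04 and 0.65 ± 0.04, Npm1 at 0.61 ± 0.05 with each bacterium, and Odc1 at 0.43 ± 0.04 and 0.39 ± 0.04, of which Nop56 and Npm1 serve ribosome production and Odc1 polyamine synthesis. Other targets with such roles were lower: Nolc1 (-0.18 ± 0.04 and -0.49 ± 0.04) and, in polyamine synthesis, Srm (-0.30 ± 0.05 and -0.16 ± 0.05). The cell cycle gene Ccnd2 was at the lower end (-0.37 ± 0.04 and -0.65 ± 0.04). After median centring the targets counted 4 and 10, and 2 and 16.

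For the BTG genes, 19 members of the BTG/TOB family and the CCR4-NOT complex were measured. With L. acidophilus 2 were higher and 3 lower (all genes 23.7% and 18.5%), with a median of -0.04. With B. clausii 1 was higher and 6 lower (all genes 23.1% and 21.1%), with a median of -0.03. Cnot2 (-0.40 ± 0.04 and -0.31 ± 0.04) and the arginine methyltransferase Prmt1 (-0.25 ± 0.05 and -0.31 ± 0.05) were lower with both. Late against early, 4 of the 19 were higher and 0 lower, where 1812 and 1829 of all 14805 genes were. Among the 4 were the scaffold Cnot1 (0.48 ± 0.08) and the deadenylase Cnot7 (0.48 ± 0.06). Btg1 was lower by its brightest probe, a call lost under median centring and when its probes were averaged. Median centring gave 0 higher and 11 lower over the 4 times with L. acidophilus, then 0 and 18 with B. clausii. Of 16 measured HSF1 and PP2A genes, partners of the IER proteins, 0 were higher and 5 lower with L. acidophilus, then 1 and 7 with B. clausii (medians -0.06 and -0.09), and after median centring 0 and 9, and 0 and 15.

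The genes whose ratios ran most like those of a member were named by Pearson's r over the 8 arrays, from 12420 genes with a symbol, as a description only, since the arrays share times and slides. For Ier5 they were Kdm5c (r = 0.997), Bnip3 (r = 0.996) and Ctsl (r = 0.994), and for Btg1 Rdh11 (r = 0.993), Lrfn3 (r = 0.991) and Spp1 (r = 0.990). Spp1, which encodes osteopontin, lay between 0.18 and 1.41 and thus above 0 with a wider range than Btg1, which r does not take into account. Srf was followed by D16Ertd472e (r = 0.989), Nupr1 and Def8, Nr4a1 by Serhl (r = 0.980), Aknad1 and Olfr1006, and Ier2 by Hipk2 (r = 0.971), Slc41a1 and Ercc6l. The closest to Btg2 were Cacfd1 (r = 0.970), Rita1 and Olfr610, to Myc Cdo1 (r = 0.966), Ufsp1 and Slc16a11, to Ier3 Slc38a2 (r = 0.952), Olfr259 and Foxn2, and to Egr2 Slc35c1 (r = 0.941), Rfx7 and Ube3c. No member was among the 3 genes most like another member.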

How the data were processed

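Two-colour Agilent mouse arrays, 1 per bacterium and time (8 in all), were analysed from spot intensity values deposited by the authors. Per the file headers these are mean foreground and median local background intensities of each channel, with the scanner software's processed signals and log10 ratios (LogRatio, log10 of red over green) beside them. The value table deposited with the series holds the same log10 ratios as deposited (r over 0.999 on each array). The software was Agilent Feature Extraction, version 10.7.3.1 per the file headers and 10.5.1.1 per the submitters' processing notes.

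Here background was corrected with normexp (offset 50), after backgrounds that the software marked as outliers and that exceeded the array's median more than 3-fold were replaced by that median, without use of those spots. Ratios were loess-normalized within arrays in limma 3.58.1 (statmod 1.5.0, R 4.3.3). Flagged and control spots were left out, repeated spots averaged, and a probe was kept if 2 or more arrays had it well above background in the red or green channel (21273 of 41174). Each gene is represented by its brightest probe. Genes were named through RefSeq tables of GRCm38.p6, 27668 probes through their accession, 5589 through the symbol and 471 through an older one, and 7446 under the file's own name. The number of arrays limits the precision.

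The limma fit (lmFit, eBayes, Benjamini-Hochberg over 14805 genes) had terms for bacterium and time on 8 arrays, with 3 residual degrees of freedom and a prior of 5.80; the interaction came from the 4 cells of bacterium and phase (4 residual degrees of freedom, prior 6.38). Channel signals were taken after loess and quantile scaling of average brightness. The fits were also run on simulated data with independent normal noise. These held no slide, dye or position effect, so they cannot speak to such effects.

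Every member is named with all its probes. Other genes are the list counts with up to 3 called examples per direction, and the 3 genes most like each member. Members, lists and promoter motifs were chosen with earlier results of these data known. Alternatives were other signals (processed, series table), background settings (none, offset 0, as deposited), median centring, scaling between arrays, filters, averaged probes, a fit without time, eBayes with a robust trend, looser thresholds (adjusted p under 0.1, 1.5-fold) and leaving out each array. Part of the cell type marker check is not reported here.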

Additional observations from a re-analysis of the deposited data

Results flagged for a closer look

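Each of these is a difference between time groups that passed the limma test of the difference itself (adjusted p under 0.05). At 4 and 6 h against 1 and 2 h, the log2 ratio of Ier2 differed by -0.49, that of Ier5 by -0.61 and that of Btg1 by -0.29. At 1 h against 2, 4 and 6 h, Ier2 differed by 0.54, Ier3 by 0.56, Ier5 by 0.44, Btg1 by 0.26 and Btg2 by 0.32. The late against early difference of Ier5 was called under all 20 alternatives run on it and that of Ier2 under 19 of 20, whereas Btg1 was called under 14 of 20. For 1 h against later times the calls of Ier2 and Ier5 held under 15 of 20, that of Btg2 under 10 and those of Ier3 and Btg1 under 6 each. Position on the slide moved with time on both slides, and its part in these differences cannot be told apart.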

How the results depend on the processing

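Of the gene values under the alternatives, 599 (and 397 with an array left out) kept their side of the threshold and, where called, their direction, 66 (and 33) lost the call, 4 (and 2) gained it, and 6 changed sign with a call before or after. Values that were called under neither setting are among the first number even where their sign changed. The 6 came with median centring: for the B. clausii mean Egr2 at -0.10, Ier2 at -0.17, Ier5 at -0.19 and Srf at -0.042, for L. acidophilus minus B. clausii Ier5 at 0.27, and for 1 h against later times Btg1 at -0.051. The 9 members called for L. acidophilus ranged from 7 to 9 with an array left out, and the 9 for B. clausii from 6 to 9, with 5 after median centring and 4 without a time term. Under median centring 2 members (Egr2 and Ier5) differed between the bacteria, against 0. The count of 3 members called late against early became 1 with the local background as deposited, and 2 to 4 with an array left out. The 5 members higher at 1 h became 0 with the processed signals or the series table, 1 with the local background as deposited, 2 with offset 0 or the mean over probes, 3 without a filter or with a trended robust prior, and 0 to 5 with an array left out. After median centring none of the 5 was called, and the only call was Myc, which was lower at 1 h (-0.43, adjusted p = 0.00623). The count past 2-fold was 2 rather than 1 for L. acidophilus with the processed signals, the series table, offset 0 or median centring, and 4 at 1.5-fold; for B. clausii it was 2 with median centring and 7 at 1.5-fold. It was 0 without the L. acidophilus array of 6 h and without the B. clausii array of 2 h, and otherwise 1. With an array left out, 0 members were called for the difference between bacteria and for the interaction. Over all genes, the 6246 calls for L. acidophilus and 6541 for B. clausii fell to 2290 and 3549 with the background unrepaired and to 3057 and 3447 without a time term. The 95 calls between the bacteria became 4935 under median centring, 526 at adjusted p under 0.1, 261 with probes above background everywhere, 25 without a filter, 21 without background correction, 6 with the background as deposited, 4 without a time term and 0 with the processed signals, the series table or offset 0. The 3641 late against early calls fell to 1289, 1286, 2254 and 1302, and the 2937 of 1 h against later times to 0, 0, 1032 and 219, with the processed signals, the series table, offset 0 and the background as deposited, and the latter to 1916 without a filter. The time term pairs the bacteria by time, and the labels give no replicate numbers to pair by. Signal over background limits Egr1 and the second Ier2 probe, which gave no ratio. Pooling of cultures hides the scatter between them.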
